A study of Mus musculus with 8 samples.

Results

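Blastocysts of connexin 43 knockout (KO) origin were compared with wild-type (WT) blastocysts on 4 of the 8 arrays of a mouse series, 2 arrays per genotype. The 4 arrays were chosen by their titles, which give the blastocyst experiment, the genotype and a replicate number. Each array read 45101 probe sets, of which 34945 were annotated to 1 gene and covered 18193 genes. Each gene was represented by its brightest probe set, and 11746 genes remained after the dimmer part of the probe sets was left out. The other 4 arrays, 1 per genotype, hold MII oocytes and embryos from implantation sites. The series asks what loss of connexin 43 does to the transcriptome of early development, and its title describes blastocysts derived from mice with an oocyte-directed depletion. The labels give the genotype only as KO or WT. They do not give the driver of the depletion, the exon removed, the genotype of the embryo itself, the strain, the age of the embryos or the number of blastocysts per array. Nothing in them says that the replicates came from separate animals, and p-values then measure only the spread between these arrays.

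Connexin 43, the product of Gja1, forms hexameric hemichannels that dock between neighbouring cells as gap junctions and let ions and small metabolites pass. In the ovary it couples granulosa cells to each other, and in the embryo it is one of several connexins made before implantation. The blastocyst consists of an outer epithelium, the trophectoderm, which pumps fluid into the cavity and later attaches to the uterus, and of an inner cell mass that separates into epiblast and primitive endoderm.

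All 6 trophectoderm markers checked, 4 of 5 inner cell mass markers and 3 of 4 primitive endoderm markers read above background on all 4 arrays. Background was taken as the brightest of 27 Bacillus control probe sets on the same array, which read 535 and 560 on the KO arrays and 322 and 345 on the WT arrays. Values under these levels appear below for several genes. They were not above background, and a log2 difference that uses one is not a measured fold. By the same level, 53.5% to 55.7% of the genes tested were detected on the KO arrays and 66.3% to 68.6% on the WT arrays. The ratio of 3' to 5' signal of Actb was 25.7 and 39.0 on the KO arrays and 69.3 and 69.1 on the WT arrays. For Gapdh the ratio was 11.2 and 11.8 on the KO arrays and 7.27 and 7.71 on the WT arrays. The difference between genotypes also moved with brightness: the median log2 difference, KO minus WT, over 4 bins of the genes tested, from dim to bright, was 0.24, 0.19, -0.01 and -0.28. The share of genes lower in the KO was 40.4% in each of the 2 dimmer bins, 51.4% in the next and 70.1% in the brightest. The part of these background, RNA and brightness differences in the results below was not tested. In bulk RNA from whole blastocysts, fewer cells of a type and less RNA per cell cannot be told apart.

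Gja1 itself was high on only 1 of the 4 arrays. Its representing probe set read 375 and 553 on the KO arrays, 9835 on WT replicate 1 and 574 on the array labelled WT replicate 2. Both KO values lay below the background level of their arrays. The array labelled WT replicate 2 lay above its own background level of 345. Its signal was nevertheless close to that of the KO arrays and far below that of WT replicate 1. The geometric mean of the WT arrays was 4.34-fold above the background level of the KO arrays. That value rests on WT replicate 1, as the array labelled WT replicate 2 lay close to that level. The log2 difference was -2.38 (SE 1.06, n = 2 per genotype) and did not pass (adjusted p = 0.332, limma with Benjamini-Hochberg adjustment). Without the array labelled WT replicate 2 it was -4.43 and passed (adjusted p = 0.00751, limma), and without WT replicate 1 it was -0.33. The probe set 1438945_x_at gave the same picture, with 145 and 192 on the KO arrays and 3577 and 166 on the WT arrays. So did 1438650_x_at, with 278 and 353 against 3402 and 190, and 1415800_at, with 412 and 144 against 3256 and 242. In all of these, WT replicate 1 stood apart and the other 3 arrays lay together. The probe sets 1438973_x_at (158 and 467 against 751 and 430) and 1415801_at (516 and 535 against 337 and 855) were dimmer. In the latter the array labelled WT replicate 2 was the highest. In both, the WT arrays were above their own background levels and the KO arrays below theirs. In the Actb and Gapdh ratios and the background level given above, the array labelled WT replicate 2 lay with WT replicate 1. Why Gja1 differed between the 2 WT arrays was not tested. The results below are given with all 4 arrays and, where it matters, with either WT array left out. Gja1 lies on chromosome 10 of GRCm38.p6 at chr10:56377300-56390419.

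**Figure D1:**
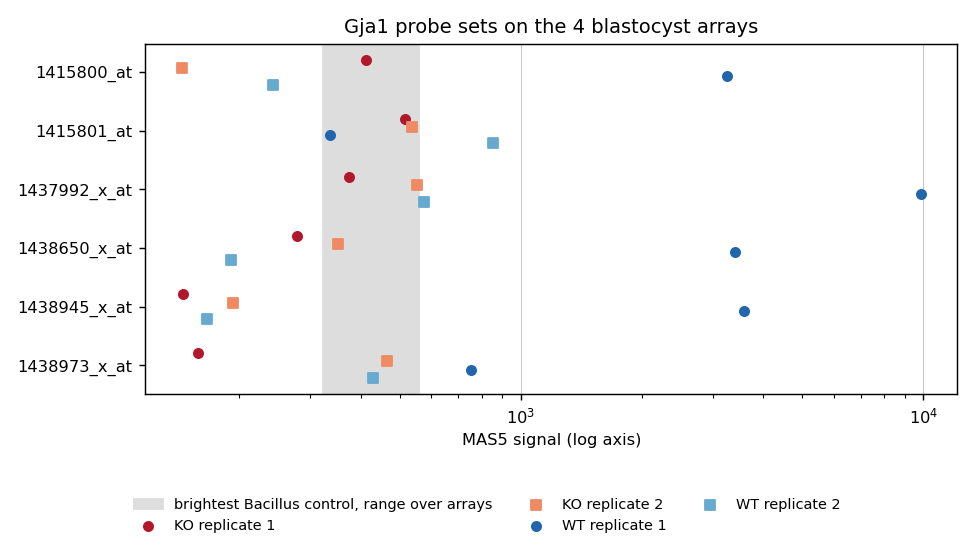
Signal of the 6 Gja1 probe sets on a log axis, with 1 point per array (KO in red and orange, WT in dark and light blue) and the range of the brightest Bacillus control over the 4 arrays in grey. WT replicate 1 reads 3256 to 9835 on 4 of the probe sets. The array labelled WT replicate 2 reads 166 to 574 there, below the grey band or just above it. The KO arrays read 144 to 553 there, within or below the band.

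With all 4 arrays, 12 genes were higher in KO blastocysts (0.102% of the genes tested) and 0 were lower (0%) at an adjusted p under 0.05 in limma. Before adjustment, a p under 0.05 was reached by 1030 higher genes (8.77%) and 788 lower genes (6.71%). When the arrays were scaled to a common median, 59 genes were higher and 14 lower, so that 80.8% of the calls were higher against 100% before. Under that scaling the median over all genes was shifted by -0.25 on the log2 scale, and differences of a gene or list are to be read relative to it. One of the 12 has only a clone name. The 11 named genes belong to no single pathway of the lists used here: 2 are homeobox genes, 1 is a Hedgehog receptor component, 1 a splicing regulator and 1 a water channel.

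Hoxc6, a homeobox transcription factor of the body axis, read 11838 and 11807 on the KO arrays and 308 and 1148 on the WT arrays, a rise of 4.31 on the log2 scale (SE 0.54, adjusted p = 0.0436, limma). Both KO arrays lay far above both WT arrays, of which WT replicate 1 was below background. Gsc2, a goosecoid-type homeobox gene, read 3410 and 3721 against 423 and 409, a rise of 3.10 (SE 0.33). Its WT arrays lay close together, a little above background. Smo, the seven-pass membrane protein that relays the Hedgehog signal into the cell, read 7281 and 11973 against 835 and 1027, a rise of 3.33 (SE 0.33). Nova2, an RNA-binding splicing regulator best known from neurons, read 2600 and 5138 against 170 and 199. Both WT values of Nova2 were below background, so the rise is given as at least 10.96-fold. The same holds for Acap1, a GTPase-activating protein for Arf6 in endosomal recycling, which read 5270 and 6031 against 256 and 189 and was at least 16.9-fold higher.

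Aqp11, an aquaporin of intracellular membranes, read 16459 and 19061 against 1654 and 2016, a rise of 3.28 (SE 0.28, adjusted p = 0.0101, limma). Ttc3, a ubiquitin ligase that acts on phosphorylated Akt, read 51818 and 109886 against 6511 and 9378, a rise of 3.27 (SE 0.42). In both genes the lowest KO array was well above the highest WT array. Aloxe3, an epidermal lipoxygenase, read 6569 and 13213 against 685 and 1032. Ankzf1, which releases stalled nascent chains from ribosomes, read 3088 and 3489 against 191 and 369, the first WT value below background. Neither gene's groups overlapped, and the rises were 3.47 (SE 0.40) and 3.63 (SE 0.42). Sec14l3, a lipid-binding protein, read 4021 and 2623 against 501 and 480, a rise of 2.73 (SE 0.35). Zfp420, a zinc finger gene, read 4070 and 3355 against 579 and 750, a rise of 2.49 (SE 0.32) and the smallest of the named 11. Without WT replicate 1 only Aqp11, Hoxc6 and Acap1 still passed, each at an adjusted p of 0.0428 (limma).

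**Figure D2:**
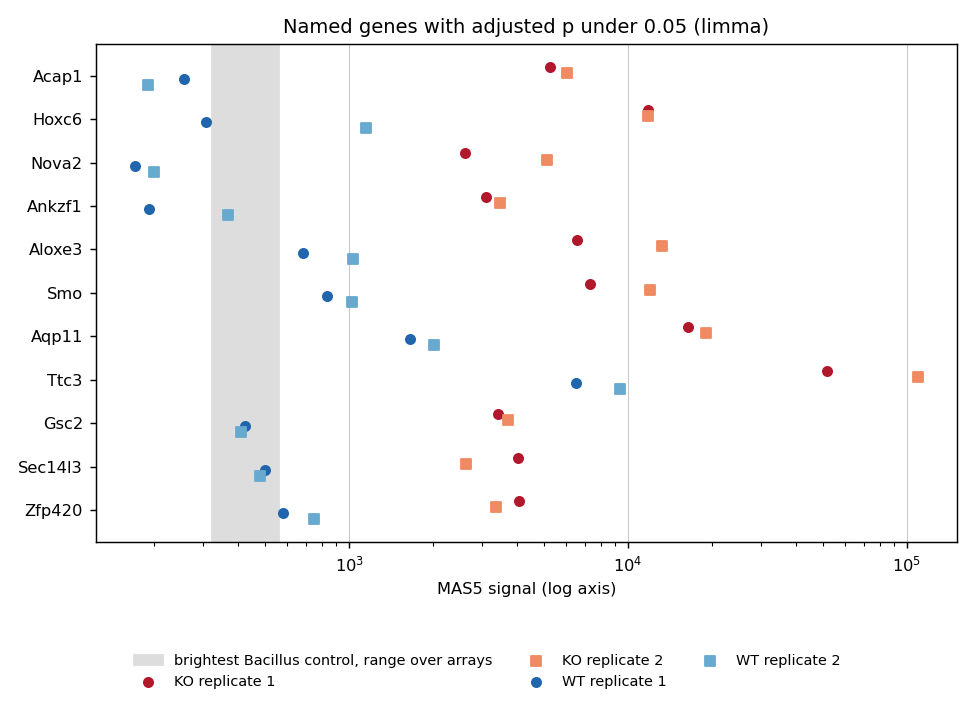
Signal of the 11 named genes that passed, on a log axis, with 1 point per array and the range of the brightest Bacillus control in grey. In every gene both KO arrays lie right of both WT arrays, and the WT arrays of Acap1 and Nova2 lie left of the grey band.

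Most of these rises rest on 1 probe set. Over 10 of the 12 genes the array carries 26 further probe sets, and 1 of them read above background on all 4 arrays. That one belongs to Hoxc6 and read 6015 and 8790 on the KO arrays and 422 and 3095 on the WT arrays, a log2 difference of 2.67 in the same direction. The remaining Hoxc6 probe set read 117 and 212 against 108 and 512, mostly below background. For Aqp11 the probe set without a suffix that passed the filter read 352 and 383 against 269 and 516, a log2 difference of -0.02. For Ttc3 the probe set that represents it when suffixes are left out read 305 and 139 against 530 and 373, a log2 difference of -1.11. Its probe sets that were below background on all arrays went both ways, 3 with differences of 2.39 to 3.00 and 1 with -1.86. The rise of Aqp11 was thus not seen in its dimmer probe set, and the dimmer probe sets of Ttc3 disagreed with each other. A suffix (_a, _s or _x) marks a probe set whose probes also match other transcripts. It was present in 58.3% of the probe sets that represent the 12 genes and in 26.4% of those that represent all genes tested. The main probe sets of Smo, Hoxc6, Nova2, Gsc2 and Aloxe3 have no suffix.

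The stretch around the annotated start is shown for 3 of these genes, which were grouped only by their rise in the KO. It was taken from RefSeq (GRCm38.p6), from 250 bases before to 50 after the start. Promoter elements were searched on both strands by their letters: the CCAAT box, the TATA box spelled TATAAA, and the GC box spelled GGGCGG. The last reads CCGCCC on the other strand, and the 3 genes shown are those whose window holds GGGCGG. Capitals mark the matches. In Gsc2 the pair of GGGCGG matches overlap each other.

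Gsc2, chr16:17914978-17915277, minus strand: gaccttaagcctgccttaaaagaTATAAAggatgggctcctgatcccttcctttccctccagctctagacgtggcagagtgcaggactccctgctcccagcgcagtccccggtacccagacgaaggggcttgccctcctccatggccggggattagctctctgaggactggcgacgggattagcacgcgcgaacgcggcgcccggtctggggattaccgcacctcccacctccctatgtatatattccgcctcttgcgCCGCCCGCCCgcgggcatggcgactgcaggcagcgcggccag

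Nova2, chr7:18925638-18925937, plus strand: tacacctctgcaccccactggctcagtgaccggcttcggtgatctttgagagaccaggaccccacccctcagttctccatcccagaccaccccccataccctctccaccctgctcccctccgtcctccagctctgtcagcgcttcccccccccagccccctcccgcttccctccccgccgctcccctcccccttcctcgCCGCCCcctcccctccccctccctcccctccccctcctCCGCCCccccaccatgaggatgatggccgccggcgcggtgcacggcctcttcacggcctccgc

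Ttc3, chr16:94370489-94370788, plus strand: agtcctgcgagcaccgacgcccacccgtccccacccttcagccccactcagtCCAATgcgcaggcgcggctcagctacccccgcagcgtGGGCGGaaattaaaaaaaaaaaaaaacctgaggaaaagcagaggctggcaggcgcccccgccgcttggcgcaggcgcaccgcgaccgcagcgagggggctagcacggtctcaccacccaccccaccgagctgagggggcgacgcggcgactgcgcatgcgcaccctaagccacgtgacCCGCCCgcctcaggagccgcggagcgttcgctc

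Of the 12 genes, 9 had 1 or more such windows, 11 in all. The windows of Ankzf1 and Zfp420 held 3 CCAAT matches each and neither of the other elements. Those of Aqp11, Smo and Sec14l3 held none of the 3. Over all 32851 windows of the same length, 37.4% held CCAAT, 13.6% held TATAAA and 35.7% held GGGCGG. The median window held 7 CpG dinucleotides, against 24 in Gsc2, 17 in Nova2, 34 in Ttc3, 27 in Aqp11, 17 in Smo and 4 in Sec14l3. A match is a string of letters in this window and says nothing of binding there.

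The 12 genes were also read on the single KO and WT arrays of the other stages. Those arrays took no part in the blastocyst fit, but they counted in the choice of probe set and in the filter. All 12 read higher on the oocyte KO array than on the oocyte WT array, as did 53.3% of all genes tested. Over the 1030 genes higher in KO blastocysts at an unadjusted p under 0.05 the share was 70.6%, and over the 788 lower genes it was 34.8%. Smo read 955 in the KO oocyte array and 167 in the WT, Aqp11 1692 and 270, and Ttc3 5398 and 1581. Acap1 hardly differed there, with 372 and 361. The brightest Bacillus control read 588 on the oocyte KO array and 171 on the oocyte WT array. Acap1, Gsc2 (438) and Ankzf1 (348) were below it on the KO array. Smo, Gsc2 and Ankzf1 were below it on the WT array, where Acap1 was above it. A gene near background would thus also read higher in the KO, and the part of that in these shares was not tested. At the implantation site 3 of the 12 read higher in the KO, namely Hoxc6, Ankzf1 and Ttc3, against 43.3% of all genes tested. Hoxc6 read below the Bacillus control on both of those arrays and Ankzf1 on the WT array, so that Ttc3, at 2384 and 2057, was the only one of the 3 above it on both. Gja1 itself had a signal of 150 on the oocyte KO array and 126 on the oocyte WT array. Both lay below the Bacillus control of their array, so the oocyte pair cannot show whether Gja1 was lost. At the implantation site its signal was 28105 (KO) against 44493 (WT), a log2 difference of -0.66. The KO value there was far above the Bacillus control of 131. None of these stage differences has a replicate check.

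Leaving out the array labelled WT replicate 2 raised the count to 294 genes higher (2.5%) and 22 lower (0.187%) in limma, with the lone WT array taken to vary like the KO arrays. All 12 genes were among the 294. The array left out took no part in that fit, but it had counted in the choice of probe set and in the filter. It read below both KO arrays in 85.7% of the higher genes, against 37.5% of all genes tested. It read above both KO arrays in 21 of the 22 lower genes, against 37.1% of all. Genes picked for high or low KO values lie on that side of any further array more often, so these shares are a description. In the 294 genes its median position on the log2 scale was 60.9% of the way from WT replicate 1 to the KO mean, and in 182 it was nearer the KO. Shh, the ligand that Smo responds to through Ptch1, is the clearest such gene: it read 45790 and 37626 in the KO, 2109 on WT replicate 1 and 39692 on the array labelled WT replicate 2. With all arrays its groups overlapped and the difference of 2.18 did not pass (adjusted p = 0.364, limma). Crb3, a polarity protein of the apical membrane, was similar with 4126 and 4485 against 479 and 3927.

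Among genes above background on all 4 arrays, 432 of 4966 were higher in the KO at an unadjusted p under 0.05 (8.7%) and 527 lower (10.6%). The largest rises among them that did not pass the adjusted test were led by Fcgr2b, an inhibitory receptor for immunoglobulin G, with 22678 and 17394 on the KO arrays and 458 and 2776 on the WT arrays. Its log2 difference was 4.14 (SE 0.69, adjusted p = 0.0840, limma), and its groups did not overlap. Zfp444 read 32329 and 39191 against 1191 and 5985, and Kbtbd13, a substrate adaptor of a ubiquitin ligase known from muscle, read 66036 and 62691 against 1437 and 21895. In both, WT replicate 1 was the lowest array and the array labelled WT replicate 2 lay between it and the KO. Aplp2, a relative of the amyloid precursor protein, read 110724 and 149412 against 5378 and 26112. R3hdm4 read 36892 and 22911 against 1091 and 6222. Rab38, a small GTPase of melanosome transport, read 15063 and 40036 against 1481 and 3404. The same order of arrays holds for these 3 genes, and the log2 differences were 3.44, 3.48 and 3.45. Zap70, a kinase of T-cell receptor signalling, read 6161 and 9316 against 416 and 1518. Vps8, a subunit of the endosomal CORVET tethering complex, read 6245 and 6094 against 376 and 1145. Of these 8 genes, all passed when the array labelled WT replicate 2 was left out. Other probe sets did not all show these rises. A second bright probe set of Aplp2, at 8920 and 9718 against 10099 and 9046, did not separate the groups (log2 difference -0.04). Probe sets of Vps8 (358 and 138 against 844 and 591) and Kbtbd13 (86.8 and 115 against 439 and 403) went the other way, with the KO values below background. Of the 121 genes named, 33 have a further probe set above background on all 4 arrays, and in 12 of these genes 1 or more such probe sets had the opposite sign.

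No gene was called lower, and the 12 largest bright differences on that side are described here. Nme1, a nucleoside diphosphate kinase, read 536 and 1052 in the KO, 38645 on WT replicate 1 and 1987 on the array labelled WT replicate 2. Like Gja1 it was high on WT replicate 1 alone, and its second probe set, at 3028 and 3112 against 3970 and 2724, did not separate the groups (log2 difference -0.10). Tet1, a dioxygenase that oxidises methylcytosine, read 1091 and 1841 against 5005 and 4356, a log2 difference of -1.72 (SE 0.34, adjusted p = 0.108, limma). A further Tet1 probe set read 818 and 433 against 2099 and 1643, a log2 difference of -1.64, and another read 1237 and 834 against 668 and 599, the other way. Ptbp1, a splicing repressor, read 15124 and 20639 against 67400 and 49092, a log2 difference of -1.70. Actl6a, a subunit of the BAF remodeller found in stem cells, read 1920 and 2354 against 6277 and 6384. Neither group pair overlapped, and both WT arrays stood together above the KO. Errfi1, a feedback inhibitor of the EGF receptor, read 2796 and 2173 against 8683 and 6806. Niban1 read 2374 and 2551 against 7312 and 7253, and its second probe set was also lower, with 1544 and 1450 against 2812 and 2085. A second Errfi1 probe set read 332 and 200 against 194 and 105, the other way and below background on all arrays.

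Usp32, a deubiquitinase, read 745 and 926 against 2987 and 2657, but another probe set of it read 4148 and 3111 against 1648 and 3690. Nup54, a channel nucleoporin, read 539 and 676 against 3531 and 1424. Its probe sets also disagreed: one without a suffix read 674 and 832 against 2228 and 1558, and another read 2979 and 2013 against 2469 and 1610. Morc3, a chromatin ATPase, read 665 and 610 against 2263 and 1664, and Cklf, a chemokine-like factor, read 551 and 1014 against 2669 and 1994. Wdr45b, an autophagy protein, read 2936 and 2502 against 6759 and 9976. Mettl5, the methyltransferase of 18S ribosomal RNA, read 1364 and 1462 against 2089 and 9635, the only one of these 12 genes in which the array labelled WT replicate 2 was far above WT replicate 1. The adjusted p of the 12 ran from 0.0898 for Niban1 to 0.268 for Mettl5 (limma). Further probe sets above background on all 4 arrays had the same direction in 57.6% of cases for the 432 higher genes and in 76.8% for the 527 lower genes, against 64.2% over all 4966. Without the array labelled WT replicate 2, Nme1, Nup54, Ptbp1 and Errfi1 passed as lower, as did Niban1. So did Idh1, the cytosolic isocitrate dehydrogenase, with 4714 and 5479 against 19073 and 10058, and Prxl2a, with 5192 and 3592 against 15373 and 8786.

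**Figure D3:**
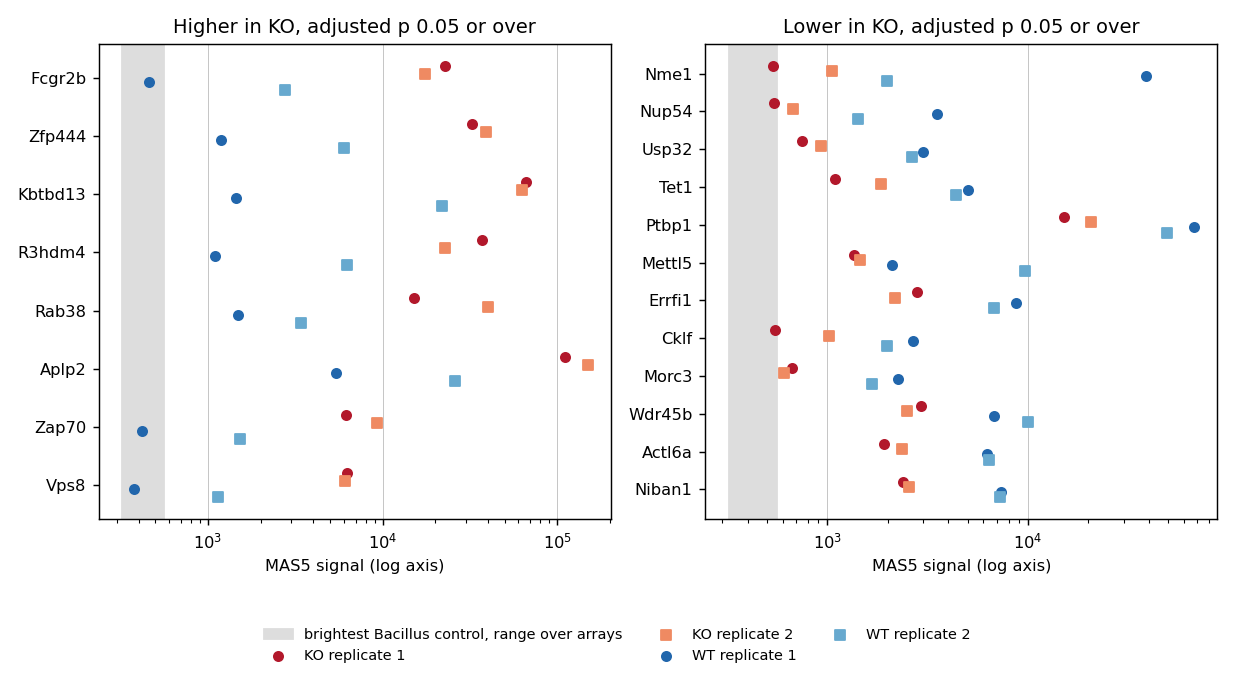
Signal on a log axis of the largest rises (left) and largest falls (right) among genes above background on all 4 arrays that did not pass at an adjusted p under 0.05, with 1 point per array. On the left WT replicate 1 is always the lowest array, while on the right the arrays of each genotype lie together in Actl6a and Niban1 and apart in Nme1 and Mettl5.

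The gene lists are described by counts and medians, with no test of the list, beside the 11746 genes tested, of which 23.8% had both KO arrays above both WT arrays and 25.3% both below. Among genes above background on all 4 arrays these shares were 21% and 35%, which is the background for lists of bright genes. The share lower in the KO was 50.6% over all genes tested and 60.0% over those above background on all 4 arrays, with medians of -0.01 and -0.15. In the brightest of the 4 bins it was 70.1%, with a median of -0.28, and lists of very bright genes are to be read beside that bin. The share with both KO arrays below both WT arrays was not counted for that bin. No member of any list was called lower with all 4 arrays, and the calls among members were Hoxc6, Gsc2, Smo, Aqp11 and Nova2.

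The trophectoderm list, at 10 of 17 members lower and a median log2 difference of -0.14, did not move one way, and without WT replicate 1 its median was 0.09. Cdx2, which sets trophectoderm fate, read 5258 and 3084 on the KO arrays and 5980 and 4853 on the WT arrays, and the groups overlapped. Eomes, a T-box factor of trophoblast stem cells, read 8571 and 5812 against 11794 and 12791, a log2 difference of -0.80 (SE 0.31). Elf5, which maintains trophoblast stem cells, read 858 and 1003 against 2023 and 2110, a log2 difference of -1.15 (SE 0.32, adjusted p = 0.187, limma). In Eomes and Elf5 both KO arrays lay below both WT arrays. Hand1, a factor of trophoblast giant cell differentiation, went the other way with 711 and 1302 against 109 and 118. Both WT values were below background, and the KO was at least 2.89-fold higher. Its second probe set read 1158 and 1051 against 48 and 111. Neither passed. Krt8 read 22079 and 25450 against 26533 and 15913, Krt18, its keratin partner, 9074 and 9768 against 6894 and 6883, and Gata3 691 and 734 against 670 and 668. Both further bright probe sets of Krt8 had small differences of the opposite sign (-0.04 and -0.36). The largest of these 3 differences, that of Krt18, was 0.45.

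The inner cell mass list was lower in 16 of 22 members, with a median of -0.44, and 12 members had both KO arrays below both WT arrays (54.5% against 25.3% over all genes). Of its 15 members above background on all arrays, 9 were so (60.0% against 35%). The median stayed between -0.69 and -0.30 over all alternatives. Klf4, a pluripotency factor, read 2889 and 2552 against 7957 and 4484, a log2 difference of -1.14 (SE 0.34, adjusted p = 0.208, limma) that passed without the array labelled WT replicate 2 (adjusted p = 0.0464). Tbx3 read 1230 and 1237 against 2682 and 2492, and Sall4, a zinc finger partner of Oct4, 7412 and 8121 against 16911 and 12880. All 3 had both KO arrays below both WT arrays. Fgf4, the signal from epiblast to primitive endoderm, read 482 and 984 against 1456 and 1365. Sox2 read 585 and 847 against 1177 and 1072. The core factors were not alike: Pou5f1, which encodes Oct4, read 1598 and 1315 against 1215 and 997, higher in the KO by 0.40, and Nanog read 1317 and 1740 against 2467 and 1626, with overlap.

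The primitive endoderm list was lower in 11 of 17 members, with a median of -0.49 that stayed below 0 in all alternatives. Sox17, a driver of this lineage, read 696 and 1552 against 2854 and 3249, a log2 difference of -1.55 (SE 0.41, adjusted p = 0.177, limma). Lamb1, a laminin chain of the basement membrane laid down by these cells, read 4244 and 5590 against 9146 and 11517. Pdgfra, their receptor tyrosine kinase, read 864 and 956 against 1529 and 1215, and 547 and 773 against 1521 and 2059 on a second bright probe set. In these 3 genes the groups did not overlap. Gata6, the earliest factor of the lineage, read 1667 and 978 against 1761 and 1633 and overlapped. A further bright probe set went the other way, with 926 and 626 against 553 and 400. Another, at 973 and 817 against 840 and 1025, did not separate the groups (log2 difference -0.06). Hhex read 1266 and 1560 against 490 and 620, higher in the KO by 1.35. The FGF list that links the inner cell mass to this fate had a median of -0.18, which turned above 0 without a filter, with the stricter filter and without KO replicate 1. Its target Spry1 read 439 and 56.5 against 641 and 617, with both KO values below background.

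**Figure D4:**
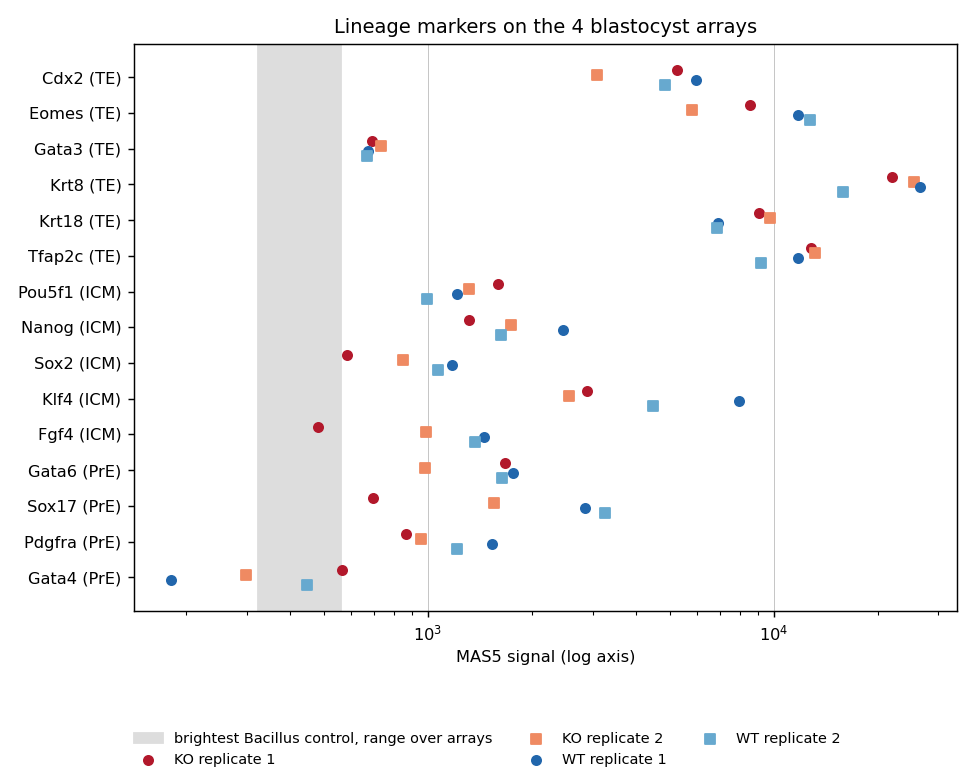
Signal of 15 lineage markers on a log axis (TE trophectoderm, ICM inner cell mass, PrE primitive endoderm), with 1 point per array and the range of the brightest Bacillus control in grey. Klf4, Sox17 and Eomes have both KO arrays left of both WT arrays, while Cdx2, Krt8, Nanog and Gata6 overlap.

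The Hippo pathway, which reads cell position and sends Yap or Taz to the nucleus of outer cells, was lower in 15 of 18 members, with a median of -0.47. Wwtr1, which encodes Taz, read 997 and 322 against 1577 and 1646, and Tead1, its DNA-binding partner, 974 and 747 against 1634 and 1610. Amot, which holds Yap at the junctions of inner cells, read 3284 and 4134 against 7543 and 6055, a log2 difference of -0.88 (SE 0.29). All 3 had both KO arrays below both WT arrays, as had 9 of the 18, and none passed. Other bright probe sets disagreed. For Wwtr1 one read 1126 and 1025 against 976 and 720, higher by 0.36, and another 989 and 642 against 1093 and 885, lower by 0.30 with overlap. For Amot one read 1114 and 1140 against 663 and 680, higher by 0.75, and averaged over its probe sets Amot had a difference of 0.12.

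Tight and adherens junction genes were lower in 20 of 25 members, with a median of -0.37. Both KO arrays lay below both WT arrays in 13 (52.0%, against 25.3% over all genes). Of the 17 bright members, 9 were so (52.9% against 35%). Ctnnd1, the p120 catenin that stabilises cadherins, read 428 and 492 against 908 and 1489, with both KO values below background. Ezr, which links the apical membrane to actin and is also listed as a connexin 43 partner, went the other way with 28639 and 31730 against 6633 and 11192. Its log2 difference was 1.81 (SE 0.34, adjusted p = 0.102, limma), and it passed without the array labelled WT replicate 2. Its probe set without a suffix read 718 and 1170 against 1505 and 1308, the opposite direction. The connexins themselves were dim: 7 of 17 with a probe set passed the filter, and none read above background on all 4 arrays. Beside Gja1, Gjb5 read 812 and 252 against 459 and 1310, Gjb2 325 and 772 against 394 and 518, and Gja10 687 and 567 against 159 and 360. The groups of Gjb5 and Gjb2 overlapped, and none of the 3 passed. The partners and trafficking list had 11 of 20 members lower. Dbn1, which links connexin 43 to actin, read 1399 and 742 against 260 and 459. Src, the kinase that closes the channel, read 816 and 971 against 135 and 728, where WT replicate 1 alone was low.

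Ion and water transport genes of cavity formation were split, with 7 of 13 lower and a median of -0.09 that changed sign in 7 alternatives, among them the pseudocount. Beside Aqp11, Aqp8 read 429 and 552 against 1070 and 1060. Slc12a2, the sodium, potassium and chloride cotransporter, read 624 and 851 against 1353 and 1205. Another of its probe sets went the other way by more, with 803 and 1006 against 302 and 353 and a log2 difference of 1.46. WT replicate 1 was below background there, and the mean over its probe sets gave a log2 difference of 0.0042.

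Chromatin genes had one of the lowest medians among the larger lists, with 27 of 33 members lower, a median of -0.56 and 20 members with both KO arrays below both WT arrays (60.6% against 25.3% over all genes). Of the 24 members above background on all arrays, 16 were so (66.7% against 35%). Bmi1 and Rnf2 are subunits of the Polycomb repressive complex that ubiquitinates histone H2A. Bmi1 read 1672 and 1900 against 6746 and 2910, a log2 difference of -1.31 (SE 0.41), and passed as lower only without the array labelled WT replicate 2. Rnf2 read 2497 and 1645 against 4554 and 4260, a log2 difference of -1.12 (SE 0.31, adjusted p = 0.191, limma). Smarcc1, a core subunit of the BAF remodeller, read 3925 and 3128 against 7444 and 6807. In Rnf2 and Smarcc1 each genotype's arrays lay together and the KO was lower. The DNA methylation list had 8 of 14 members lower and a median of -0.21, which was 0.05 with probe sets without a suffix. Beside Tet1 it holds Uhrf1, which recruits the maintenance methyltransferase, at 2760 and 4549 against 8208 and 7058, and Trim28, which guards imprints in the early embryo, at 7123 and 11833 against 19148 and 14369. Dnmt3l read 560 and 718 against 1419 and 1057. These 4 were the members with both KO arrays below both WT arrays (28.6%, against 25.3% over all genes), and 2 had both above. Among the 9 bright members the share below was 44.4%, against 35%.

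Among the lists on translation, which the series title names, translation factors were lower more often than the background shares, and the ribosomal lists lay near them. Of 49 translation factors 37 were lower (75.5%, against 70.1% in the brightest bin of all genes), with a median of -0.39. Of the 49, 25 had both KO arrays below both WT arrays against 2 above (51.0% and 4.08%, against 25.3% and 23.8% over all genes). Among the 41 above background on all arrays it was 21 (51.2% against 35%). Pabpc4, a poly(A)-binding protein, read 3189 and 4881 against 8950 and 9232, a log2 difference of -1.20 (SE 0.31, adjusted p = 0.165, limma). Gspt1, the release factor eRF3, read 494 and 699 against 1986 and 947. Eif3m, a subunit of initiation factor eIF3, read 476 and 451 against 1187 and 965, with both KO values below background. None of these 3 overlapped between groups and none passed. Further bright probe sets of Gspt1 (726 and 1063 against 543 and 783) and Eif3m (650 and 795 against 474 and 871) had the opposite sign, with overlap. Cytosolic ribosomal proteins differed less: 30 of 45 were lower, with a median of -0.13 that was 0.07 without WT replicate 1, and 9 had both KO arrays below both WT arrays (20.0% against 25.3%). Of the 44 bright ones, 68.2% were lower and 20.5% had both KO arrays below (60.0% and 35% over bright genes). Rpl22l1 read 1291 and 1627 against 3728 and 3385 and Rpl27a 6799 and 12688 against 25022 and 17017. Rpl37 went the other way with 14077 and 19987 against 2623 and 3975, a log2 difference of 2.38 (SE 0.33, adjusted p = 0.0596, limma) that passed in 7 of 13 alternatives, among them quantile normalization and leaving out the array labelled WT replicate 2. Ribosome biogenesis genes were lower in 53 of 74, with a median of -0.22. Among its 56 bright members 33.9% had both KO arrays below both WT arrays, at the background of 35%. The largest differences were those of Noc3l, a 60S assembly factor, at 133 and 387 against 1221 and 1155, and of Polr1b, the second subunit of RNA polymerase I, at 55.9 and 125 against 573 and 517. In both, the KO values were below background, so that Noc3l was at least 2.17-fold lower and no fold is given for Polr1b. Mitochondrial ribosomal proteins were lower in 49 of 74, with a median of -0.29, and among the 56 bright ones the share with both KO arrays below was 37.5%, also near 35%. Mrpl42 read 803 and 848 against 2536 and 1603, whereas Mrpl14 read 1872 and 3702 against 311 and 468 and Mrpl20 2171 and 2160 against 653 and 522. The groups of these 3 did not overlap.

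Of the lists on protein folding and turnover, 2 exceeded the 35% of bright genes with both KO arrays below both WT arrays, and the proteasome lay near it. The unfolded protein response list was lower in 24 of 29, with a median of -0.56. In it 14 members had both KO arrays below both WT arrays and 0 above (48.3% and 0%, against 25.3% and 23.8% over all genes). Of its 20 bright members, 10 were so (50% against 35%). Canx, a chaperone of glycoprotein folding in the endoplasmic reticulum, read 9050 and 6432 against 17659 and 13073, a log2 difference of -0.99 (SE 0.32). Herpud1, which serves degradation of proteins from that compartment, read 121 and 142 against 374 and 547, with the KO below background. Chaperones were lower in 23 of 33 (69.7%, near the 70.1% in the brightest bin of all genes), with a median of -0.42. Of their 26 bright members, 15 had both KO arrays below (57.7% against 35%). Hspa1b, an inducible Hsp70, read 622 and 382 against 2352 and 1465, Hspa9, the mitochondrial Hsp70, 9319 and 9202 against 19573 and 15399, and Dnajb1, an Hsp40 cochaperone, 4401 and 4064 against 11398 and 5817. All 3 had both KO arrays lower, and Dnajb1 passed only without the array labelled WT replicate 2. Proteasome genes were lower in 30 of 37, with a median of -0.28, but 12 of 32 bright members had both KO arrays below (37.5% against 35%), near the background share. Psma1 read 2118 and 2615 against 5735 and 4475, and Psmc3, an ATPase of the regulatory particle, 688 and 991 against 3043 and 1462. Oxidative phosphorylation genes were lower in 59 of 71, with a median of -0.24. Of the 65 above background on all arrays, 25 had both KO arrays lower (38.5% against 35%), close to the background share. Atp5b, the catalytic subunit of ATP synthase, read 1327 and 1835 against 5073 and 2616, while Cox8a read 4182 and 1186 against 745 and 423.

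Lists on growth control, the cell cycle and lipid synthesis also had medians below 0. Cell cycle genes were lower in 33 of 48, with a median of -0.29, and 15 of 33 bright members had both KO arrays below (45.5% against 35%). Cdkn1a, the p21 inhibitor of cyclin-dependent kinases, went the other way with 1547 and 1150 against 443 and 257, a log2 difference of 1.98 (SE 0.45, adjusted p = 0.141, limma). The array labelled WT replicate 2 was below background for it. Bub1, a kinase of the spindle checkpoint, read 608 and 658 against 1787 and 1285, and Ccnd3 197 and 279 against 713 and 1253. The groups of these 3 did not overlap and none passed. Rheb, the GTPase that activates mTORC1, read 5395 and 5257 against 12034 and 9185 in an mTOR list with 16 of 25 members lower (median -0.33). Azin1, which spares ornithine decarboxylase from decay, read 1409 and 1613 against 3045 and 2814 among polyamine genes, of which 7 of 12 were lower (median -0.30, and 0.33 with probe sets without a suffix). Sat1, which acetylates polyamines for export, read 901 and 1249 against 2470 and 1757. Lipid synthesis genes were lower in 17 of 27 (median -0.24). Fasn, the fatty acid synthase, read 381 and 600 against 1925 and 1330, and Scd2, a desaturase, 5086 and 7408 against 19199 and 11940. Tm7sf2, a reductase of cholesterol synthesis, read 1440 and 1611 against 437 and 275, the other way. Lysosome and autophagy genes were lower in 23 of 34 (median -0.27), p53, apoptosis and repair genes in 19 of 33 (-0.19), Myc and growth genes in 11 of 17 (-0.26) and splicing factors in 31 of 44 (-0.22).

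Glucose, amino acid and imprinted genes had no common direction. Their medians were 0.09, 0.08 and 0.02, and all 3 were below 0 with a common median scaling, those of amino acid transporters and imprinted genes also with quantile normalization, and that of imprinted genes also with the pseudocount. Slc16a1, a lactate and pyruvate transporter, read 1203 and 1548 against 3638 and 3074. Slc2a4, the insulin-responsive glucose transporter, read 992 and 1552 against 268 and 574. Plagl1, a paternally expressed zinc finger gene, read 665 and 784 against 1984 and 2106, a log2 difference of -1.50 (SE 0.33, adjusted p = 0.129, limma). Grb10, an adaptor that restrains growth, read 1728 and 1866 against 677 and 1203. Dlk1, a growth regulator of the Notch family, read 1171 and 955 against 52.3 and 531. Among genes for implantation competence 15 of 26 were lower, with a median of -0.05. Hspg2, which encodes perlecan on the surface of attaching trophectoderm, read 1494 and 2014 against 985 and 934. Hbegf read 373 and 166 against 534 and 379, with the KO below background. Aminoacyl-tRNA synthetases were lower in 12 of 21 (median -0.03, and 0.03 with quantile normalization), keratins and desmosomal genes in 6 of 11 (-0.10, and 0.10 with quantile normalization), and genes restricted to the two-cell and preimplantation stages in 5 of 10 (0.10, and -0.15 with a common median).

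Lists of patterning genes had medians above 0, and these were dim lists, to be read beside the dimmer bins of all genes, where 40.4% were lower. Hox and related homeobox genes were higher in 17 of 22 members, with a median of 0.73, and 9 had both KO arrays above both WT arrays (40.9% against 23.8%). The median was -0.03 without WT replicate 1. Beside Hoxc6 and Gsc2, Meis2, a Hox cofactor, read 769 and 1348 against 34.3 and 235, and Hoxa9 1420 and 571 against 325 and 310. Of the 22, 3 read above background on all 4 arrays. Wnt pathway genes were higher in 19 of 34 (44.1% lower), with a median of 0.32. Of the 34, 14 had both KO arrays above both WT arrays and 7 below (41.2% and 20.6%, against 23.8% and 25.3% over all genes). Its 7 bright members had a median of -0.13. Fzd10, a receptor, read 3651 and 5699 against 699 and 1540, a log2 difference of 2.14 (SE 0.43, adjusted p = 0.112, limma). The ligands Wnt7a (1393 and 1448 against 531 and 153), Wnt10a (1623 and 1189 against 149 and 385) and Wnt16 (735 and 955 against 178 and 66.1) all had both KO arrays above both WT arrays. In the Hedgehog list 10 of 17 were higher (41.2% lower, near the share in the dimmer bins), but 2 had both KO arrays above both WT arrays and 4 both below (11.8% and 23.5%, against 23.8% and 25.3% over all genes). Its median was 0.32, and -0.28 over its 6 bright members. The median of the whole list was -0.24 without WT replicate 1 and also below 0 with the stricter filter and without KO replicate 1. Smo rose, whereas Ptch1, the receptor that is also a target of the pathway, read 950 and 1189 against 1807 and 1938, lower by 0.82 without passing. Integrins and laminins were higher in 15 of 22, with a median of 0.54 that was -0.30 without WT replicate 1. Lama5 read 3336 and 19511 against 868 and 2314. Itgb5 read 10965 and 23873 against 1798 and 4776, but its probe set without a suffix read 1219 and 1296 against 1114 and 3306.

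**Figure D5:**
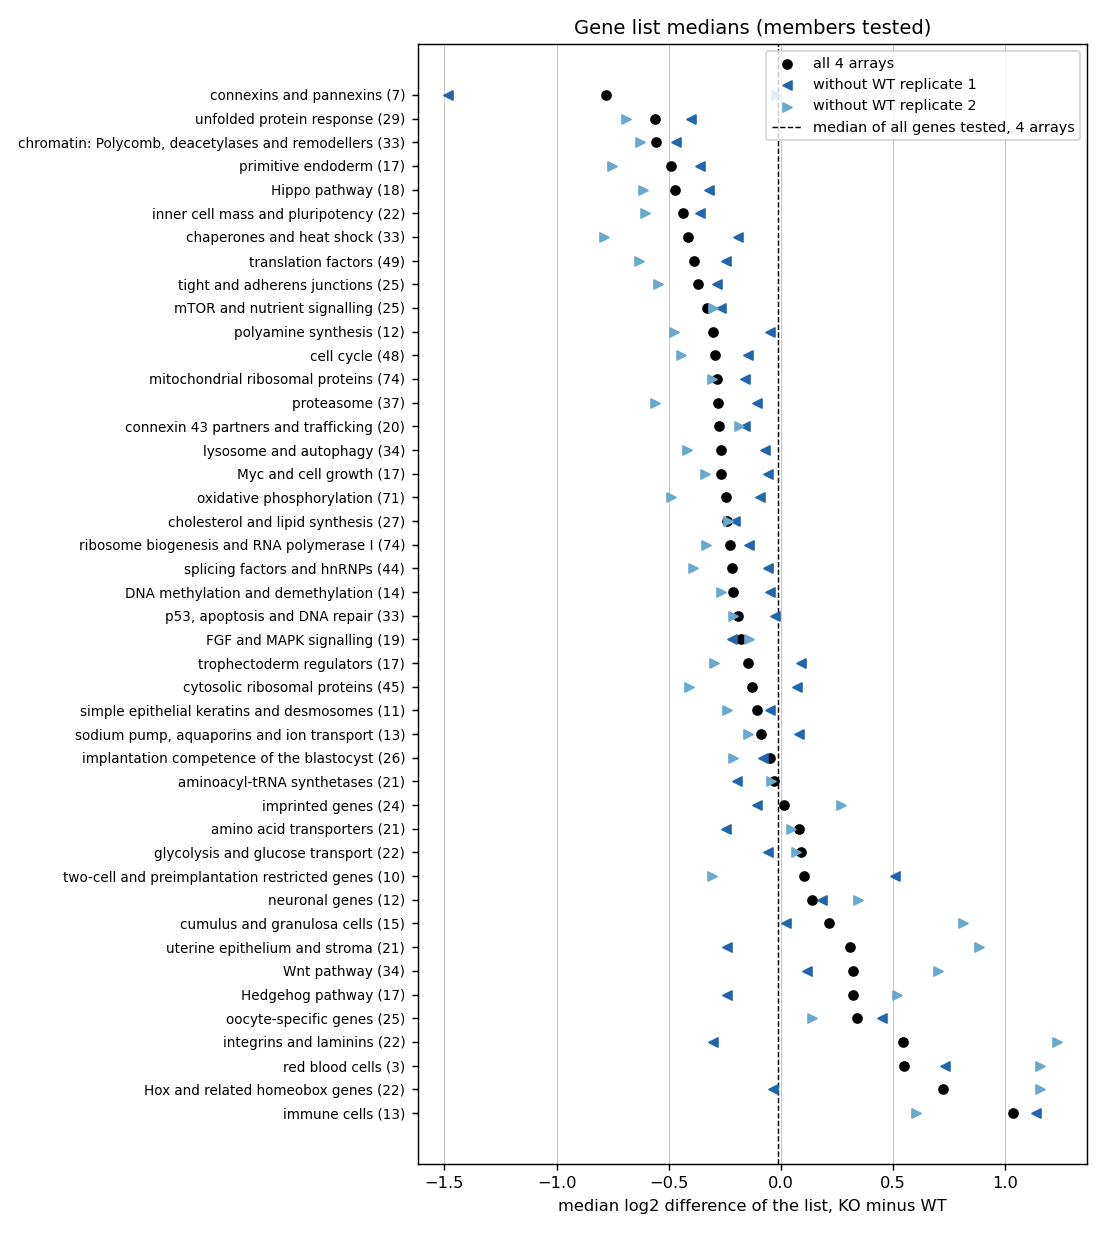
Median log2 difference, KO minus WT, of the 44 gene lists, with the number of members tested in brackets: black points use all 4 arrays, dark triangles leave out WT replicate 1 and light triangles leave out the array labelled WT replicate 2. Of the 44 medians 30 lie below 0, and 27 do so with all 3 sets of arrays, while the medians of homeobox genes, integrins and laminins, uterine and Hedgehog genes are above 0 with all arrays and below 0 without WT replicate 1.

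Several, though not all, of the markers chosen for oocyte, cumulus and granulosa, uterine, immune and red blood cells were at background. Of the 5 uterine markers 4 read above background on no array, of the 5 oocyte markers 3, and of the red blood cell markers both that were measured. Of the 5 immune markers, Ptprc, Cd14 and Cd3e read above background on no array. Of the 4 cumulus and granulosa markers measured, each read above background on 1 or 2 arrays and none on all 4, with sums of 3116 and 1536 against 682 and 2069. Most of the highest sum was Amh, a hormone of granulosa cells, at 1980 and 351 against 57.8 and 779. The summed signal of the 5 immune markers was nevertheless higher in the KO, at 8002 and 14065 against 1040 and 4652, and most of it came from Csf1r and Tyrobp. Csf1r, the receptor for macrophage colony-stimulating factor, read 6134 and 11937 against 593 and 3881, a log2 difference of 2.50 (SE 0.75, adjusted p = 0.213, limma). Its second bright probe set read 2285 and 1482 against 571 and 905. Tyrobp, an adaptor of myeloid receptors, read 1178 and 1842 against 287 and 580. The immune list as a whole was higher in 10 of 13 members, with a median of 1.04. Zap70 and Fcgr2b, above, are also genes of leukocytes, and Ptprc, the marker that all leukocytes share, read 3.02 to 120 on these arrays. The summed oocyte markers were 1744 and 1886 against 949 and 1892, without a separation of the groups. The part of these other cell types in the differences was not tested.

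Near the targeted locus no gene passed. Of 67 genes tested within 10 Mb of Gja1, 7 were higher and 8 lower at an unadjusted p under 0.05 (10.4% and 11.9%, against 8.77% and 6.71% over all genes). On chromosome X 25 of 367 were higher (6.81%) and 26 lower (7.08%).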

How the data were processed

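MAS5 made the signal intensity values that the authors deposited for the 8 arrays, per the submitters' processing notes, and its version is not given. The intensity is linear and had a 2% trimmed mean of 500 on each blastocyst array, and it was used without further normalization. No detection calls were used. Background comes from the Bacillus controls and rests on the assumption that none of their RNA was added, for which no source was found. Array titles gave genotype and replicate.

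Only probe sets annotated to 1 gene were kept (932 match several genes, 9160 none and 64 are controls). A gene took the probe set with the highest mean of log2 signal over all arrays, and the upper 50% of probe sets were tested, those with a mean signal above 151. The test of KO minus WT was limma 3.58.1 under R 4.3.3 (lmFit, then eBayes with intensity trend, 2-sided, Benjamini-Hochberg adjusted p under 0.05). The fit was tested on simulated data. The number of arrays limits the precision. Plots used matplotlib 3.10.9.

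Named genes were Gja1, every gene with an adjusted p under 0.05, the 12 largest bright rises and falls at an unadjusted p under 0.05 without overlap, 6 in each direction that passed without the array labelled WT replicate 2, up to 4 members of each of 44 lists and 10 lineage markers. Further genes were picked after their values were seen. The members and lists were chosen with earlier results of these data known. Alternatives used quantile normalization, a common median, a pseudocount of 50.4, no filter or the upper 30%, probe sets chosen on the blastocyst arrays, the mean of all probe sets, probe sets without suffix, no trend, the replicate number as a block, or 1 array fewer.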

Additional observations from a re-analysis of the deposited data

Results flagged for a closer look

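Of the 12 genes higher in KO blastocysts, 8 named ones read lower in the KO than in the WT at the implantation site, opposite in sign to every KO blastocyst array. The log2 differences there were -2.26 for Aloxe3, -1.45 for Zfp420, -0.96 for Nova2, -0.95 for Aqp11 and Gsc2, -0.73 for Smo, -0.33 for Acap1 and -0.18 for Sec14l3. With 1 array per genotype at that stage, the difference between stages was not tested. Aloxe3 read 71.0 and 341 there, and its KO value was below the brightest Bacillus control of that array (131).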

How the results depend on the processing

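The count of genes higher in the KO, 12 with all arrays, was 13 with quantile normalization, 59 with a common median, 23 with the pseudocount, 34 with the stricter filter, 1 with the mean of all probe sets, 5 with probe sets without suffix and 0 without the intensity trend, where 974 genes were higher and 469 lower at an unadjusted p under 0.05. Leaving out 1 array gave 3 to 294 genes higher and 0 to 22 lower. With probe sets and filter chosen on the blastocyst arrays 8 genes were higher, all of them among the 12. The count lower, 0, was 1 with quantile normalization and 14 with a common median. With the replicate block 91 genes were higher and 1 lower. The labels do not say that equal numbers share an origin, and over genes KO1 minus KO2 and WT1 minus WT2 correlated at 0.0182, so the numbers were not taken to pair the samples. Gja1 was lower under all 14 alternatives and passed in 1, at -4.43, with -4.43 to -0.33 when 1 array was left out. The number of list medians below 0, 30 of 44, ran from 28 to 36. Of the 121 genes named, 106 kept their direction under all alternatives in which they could be tested. With probe sets without suffix the direction turned for Aqp11 (-0.0213), Ttc3 (-1.11), Ezr (-0.61), Itgb5 (-0.61), Src (-1.03) and Ctnnd1 (0.0357). With the mean of all probe sets it turned for Amot (0.12), Gata6 (0.0762), Slc12a2 (0.0042) and Krt8 (-0.0647). With probe sets chosen on the blastocyst arrays it turned for Nup54 (0.30), Usp32 (0.54) and Krt8 (-0.0390). Scaling turned Gata3 (-0.0018 with quantile normalization, -0.16 with a common median), Gjb2 (-0.0248 and -0.11) and Krt8 (-0.0485 with a common median). Leaving out 1 array gave ranges across 0 for Gjb2 (-0.48 to 0.77), Gjb5 (-1.62 to 0.0656) and Krt8 (-0.16 to 0.57). Beyond the construction of each alternative, the cause was not tested. Signal near the Bacillus controls limits what can be said of dim genes: 4966 of 11746 read above them on all 4 arrays.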
